A study of Mus musculus with 9 samples.

Results

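The Toll-like receptor (TLR) adaptors and the interleukin-1 receptor-associated kinases (IRAKs), with the downstream ligase Traf6 and the kinase Map3k7, were followed as RNA in mouse macrophages. The 10 genes Myd88, Tirap, Ticam1, Ticam2, Irak1, Irak2, Irak3, Irak4, Traf6 and Map3k7 were taken by gene symbol from the 25494 genes of the library table. All 10 were listed in each of the 3 comparisons made between the groups.

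The cells were immortalized bone marrow-derived macrophages that lacked tristetraprolin (TTP, gene Zfp36), an RNA-binding protein that binds AU-rich elements in 3′UTRs and promotes decay of inflammatory mRNAs. They expressed GFP, GFP-TTP (the TTP group) or GFP-TTP-AA, a TTP in which the serines at 2 phosphorylation sites were replaced by alanine (S52A and S178A; the TTP-AA group). Each group had 3 libraries, 9 in all, made from total RNA after depletion of ribosomal RNA. The study compared the groups to learn how TTP and its phosphorylation affect RNA abundance early in the response to lipopolysaccharide (LPS), a TLR4 ligand.

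All 3 groups shared the same background. TTP-deficient macrophages were immortalized with the oncogenes hcmyc and hRasG12V, CD11b and F4/80 positive cells were taken, and a doxycycline-inducible vector was added. Every library came from cells given doxycycline at 1 µg/ml for 6 h and LPS at 1 µg/ml for 1 h, so that no value without LPS or without doxycycline was analysed here. Each group was a transduced line of its own, and a difference between lines cannot be told apart from a difference between transgenes. The design text calls the 3 replicates biological, but separate cultures are not described in the labels, so that p-values measure the spread between these libraries.

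As background, TLRs and the interleukin-1 receptor family signal through short adaptor proteins that are recruited to the receptor once a ligand binds. Myd88 assembles the IRAK kinases into a complex, from which Traf6 and Map3k7 (TAK1) carry the signal to NF-κB and the MAP kinases, whereas Ticam1 (TRIF) carries signals of TLR3 and of internalized TLR4 to interferon regulatory factors as well. Macrophages express both branches, and the pathway contains its own brake, Irak3 (IRAK-M), a member of the kinase family that restrains signaling by the others.

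The 3′UTRs of the 10 genes were searched first for AU-rich motifs, because these are the elements that TTP is known to bind. Positions and sequences are those of the transcript with the longest coding sequence in GENCODE release 21 on GRCm38, read on the sense strand only. The 7-base motif TATTTAT was found in 3 of the 10 genes, Irak2, Traf6 and Map3k7, compared with 27.45% of 11410 listed genes with a 3′UTR. The sites in Irak2 lay at chr6:113694395-113694423 and chr6:113694429-113694457 on the plus strand, that in Traf6 at chr2:101699323-101699351 on the plus strand and that in Map3k7 at chr4:32020714-32020742 on the plus strand. They are shown with 11 flanking bases on each side and the motif in capitals, since they are the only matches to that motif in the 10 3′UTRs.
Irak2, first site: cattgtgcccaTATTTATtttaatggaga
Irak2, second site: aggttgtgtgtTATTTATagctaggtgaa
Traf6: agctgtgtctaTATTTATttagaaattgc
Map3k7: tacaaagagaaTATTTATattgttaacaa

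The shorter core ATTTA, which every TATTTAT contains, was present in 8 of the 10 3′UTRs, compared with 66.08% of the listed genes. The numbers of matches were 11 in Traf6, 7 in Map3k7, 4 in Irak2, 3 in Tirap, 2 in Ticam2 and 1 each in Myd88, Irak3 and Irak4. Ticam1 and Irak1, with 3′UTRs of 576 and 469 bases, contained no ATTTA. The 9-base form TTATTTATT, which contains the 7-base one, was found in 0 of the 10 genes and in 7.117% of the listed genes. Irak3, which had the largest change of the 10 genes, is shown because its 3′UTR of 1067 bases held a single ATTTA, at base 989, in the window chr10:120141710-120141738 on the minus strand.
Irak3: ctgcttctctgtATTTAaattcttagaag

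**Figure D1:**
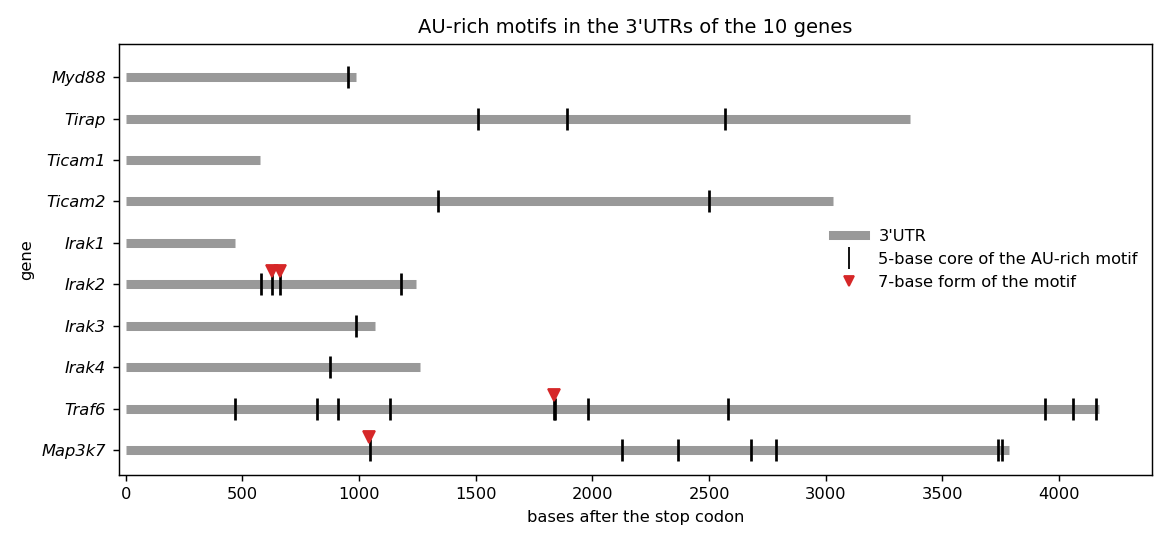
Positions of AU-rich motifs in the 3′UTRs of the 10 genes, with bases after the stop codon on the horizontal axis and 1 gray bar per gene. Black ticks mark the 5-base core and red triangles the 7-base form, which is present in Irak2, Traf6 and Map3k7 only, while Ticam1 and Irak1 carry no mark.

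The library table was deposited as normalized counts but held the fitted means of the authors' DESeq2 model, each built from a factor of its library, a replicate-number term and a group term. Over its 25494 genes and 9 libraries the log2 values had 4 nonzero singular values, where 8 are possible with measured values. The values below are therefore fitted normalized counts, which carry no scatter of their own, and the spacing between groups is the same at each replicate number by construction. Overlap of group ranges thus only sets the group term against the replicate-number term, and is not a test. Sums of fitted counts, used in place of depth, ranged from 21482954 (TTP replicate 1) to 102613526 (TTP-AA replicate 3), and the lowest fitted count of any of the 10 genes in a library was 146.5, for Ticam1. Tests and standard errors (SE) are those of the authors' model (Wald test, two-sided, Benjamini-Hochberg adjustment over all listed genes), and "called" means an adjusted p under 0.05.

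Zfp36, the gene disrupted in these cells, had fitted normalized counts of 1762, 1429 and 874.1 in GFP replicates 1 to 3, of 1812, 1470 and 899.3 in TTP and of 2851, 2312 and 1414 in TTP-AA. The change was 0.04 ± 0.17 (log2 ± SE, adjusted p = 0.93) for TTP against GFP and 0.69 ± 0.17 (adjusted p = 0.00068) for TTP-AA against GFP, so that the test did not separate the TTP libraries from GFP and Zfp36 RNA does not check their label. Reads of the disrupted gene and of the transgene cannot be told apart in these counts. All 8 macrophage markers were present, whereas the listed markers of fibroblasts, T cells and B cells were under 10 in every library, and 3 mast cell markers were not in the table. The neutrophil markers Mpo and Elane were under 1, but S100a8 was present at 110.3 to 309.4, and the dendritic cell markers Flt3, Zbtb46 and Xcr1 were present at 13.2 to 283.1. In bulk RNA, fewer cells that express a gene and less RNA per cell cannot be told apart.

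Ticam1 and Irak3 were the genes of the 10 that were called in the authors' model, and all 4 of their calls were lost once the scores of the Wald test were scaled by the central spread over all genes (adjusted p from 0.52 to 0.61). Ticam1 was lower in TTP than in both GFP and TTP-AA, and Irak3 was highest in TTP-AA, above both other groups. The remaining 8 genes, among them Myd88, Irak1, Irak4 and Traf6, were not called in any comparison.

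For TTP against GFP, 1 of the 10 genes was called and it was lower, compared with 9.16% of the 11977 genes listed for that comparison. Of the 10 genes, 4 had a positive and 6 a negative change, with a median of -0.03 compared with 0.01 over all listed genes. For TTP-AA against GFP, 1 of the 10 was called and it was higher, compared with 17.9% of 13205 listed genes, and the median change was 0.07 compared with 0.00 over all genes. For TTP-AA against TTP, 2 of the 10 were called, both higher, compared with 28.6% of 13205 listed genes, and the median change was 0.11 compared with -0.01.

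With 10 genes, these counts lay within about 1 gene of the background share, and the difference from it was not tested. The median absolute log2 change of the 10 genes was 0.12, 0.13 and 0.17 for TTP against GFP, TTP-AA against GFP and TTP-AA against TTP, and that of all listed genes was 0.13, 0.16 and 0.19. At an unadjusted p under 0.05, 1, 3 and 3 of the 10 genes passed. For TTP-AA against GFP, the weakest of these was Myd88 (unadjusted p = 0.042, Wald test), and 27.44% of all listed genes had a larger absolute score. For TTP-AA against TTP it was Map3k7 (unadjusted p = 0.040, Wald test), and 35.99% had a larger one. The share of all genes at that threshold was not counted. The 3 comparisons share libraries, so that their values are given side by side.

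**Figure D2:**
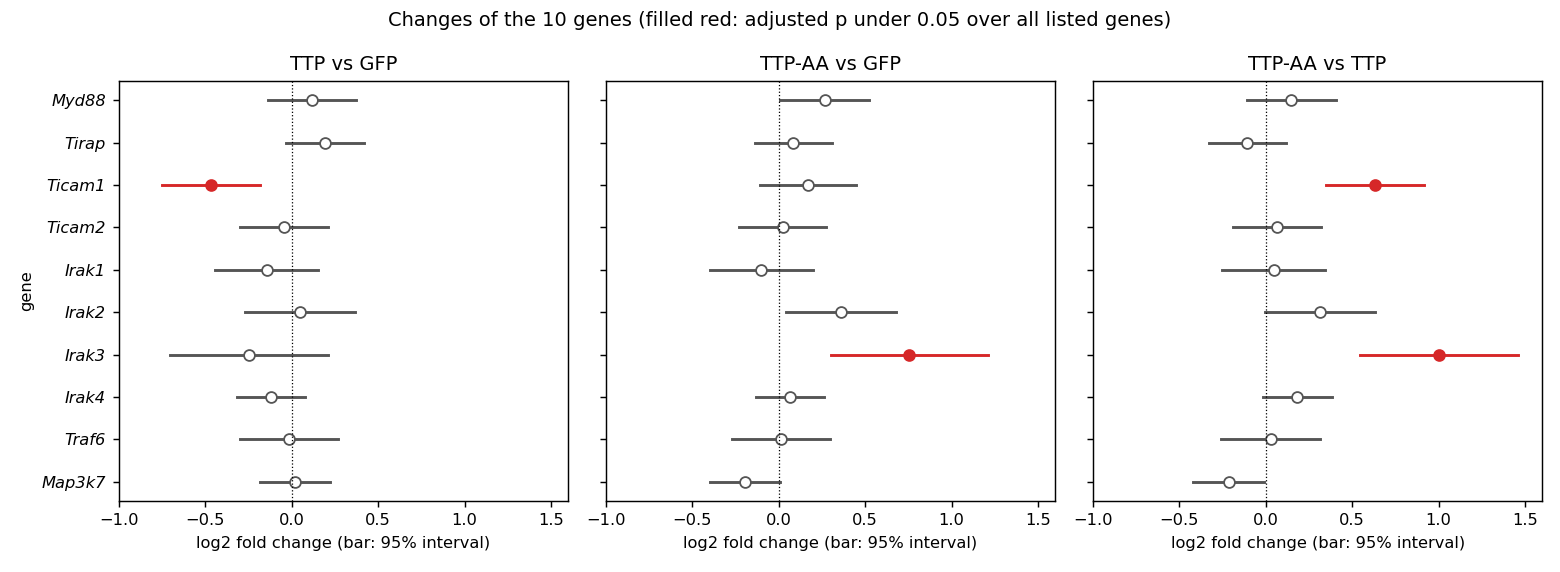
Log2 fold changes of the 10 genes in the 3 comparisons, with the change on the horizontal axis, 1 row per gene and bars for the 95% interval from the standard error of the authors' model. Filled red points were called, which were Ticam1 (-0.47) for TTP against GFP, Irak3 (0.75) for TTP-AA against GFP, and Ticam1 (0.63) and Irak3 (1.00) for TTP-AA against TTP.

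Among the adaptors, Ticam1 (ENSMUSG00000047123, chr17:56269319-56276786, minus strand, GRCm38) carries the signal of TLR3 and, with Ticam2, of TLR4. Its fitted normalized counts were 335.5, 216.8 and 383.9 in GFP replicates 1 to 3, 243.0, 157.1 and 278.1 in TTP and 377.0, 243.7 and 431.4 in TTP-AA. TTP was the lowest group, at each replicate number by construction. The ranges of the 3 groups overlapped when the numbers were set aside, since replicate 2 was low in every group.

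Ticam1 fell by 0.47 ± 0.14 on the log2 scale for TTP against GFP (adjusted p = 0.020, 95% interval -0.75 to -0.18), to 0.724 of the GFP level. For TTP-AA against TTP it rose by 0.63 ± 0.14 (adjusted p = 0.00013), that is 1.55-fold with an interval of 1.28 to 1.89. The change for TTP-AA against GFP was 0.17 ± 0.14 (adjusted p = 0.47, interval -0.11 to 0.45). No exon of another annotated gene overlapped those of Ticam1.

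Myd88 (ENSMUSG00000032508, chr9:119335934-119341411, minus strand), the adaptor of all TLRs except TLR3, had fitted normalized counts of 2278, 2356 and 2874 in GFP, 2470, 2554 and 3115 in TTP and 2738, 2831 and 3454 in TTP-AA. The fitted order was GFP, TTP, TTP-AA, the same at each replicate number by construction, with overlapping ranges. The log2 changes were 0.12 ± 0.13 for TTP against GFP, 0.27 ± 0.13 for TTP-AA against GFP (interval 0.01 to 0.52) and 0.15 ± 0.13 for TTP-AA against TTP, with adjusted p of 0.68, 0.15 and 0.43. Of the annotated exon bases of Myd88, 11.26% overlap Acaa1a on the opposite strand, and the sources used here do not say whether counting took strand into account.

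Tirap (ENSMUSG00000032041, chr9:35184551-35200291, minus strand), which brings Myd88 to TLR2 and TLR4 at the membrane, had fitted normalized counts of 979.4, 832.4 and 929.5 in GFP, 1118, 950 and 1061 in TTP and 1039, 883 and 986 in TTP-AA. The groups overlapped and lay close together. Its log2 changes were 0.19 ± 0.11, 0.09 ± 0.11 and -0.11 ± 0.11 in the order TTP against GFP, TTP-AA against GFP and TTP-AA against TTP, with adjusted p of 0.34, 0.69 and 0.54. An antisense transcript, Gm39318, covers 9.048% of its exon bases.

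Ticam2 (ENSMUSG00000056130, chr18:46557291-46574533, minus strand), the adaptor that links TLR4 to Ticam1, ranged from 276.8 to 354.2 fitted normalized counts in GFP, from 268.8 to 343.8 in TTP and from 281.4 to 360 in TTP-AA. The 3 ranges nearly coincided. The changes were -0.04 ± 0.13, 0.02 ± 0.13 and 0.07 ± 0.13 in the same order of comparisons, with 95% intervals of -0.30 to 0.21, -0.23 to 0.27 and -0.19 to 0.32. Of its exon bases 14.47% are shared on the same strand with Tmed7, and how many reads this affects was not measured.

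Among the IRAK family, Irak3 (ENSMUSG00000020227, chr10:120141648-120202130, minus strand) is the inhibitory member, found mainly in monocytes and macrophages. Its fitted normalized counts were 932.9, 534.1 and 682.2 in GFP replicates 1 to 3, 786.5, 450.3 and 575.2 in TTP and 1574, 901.2 and 1151 in TTP-AA. TTP-AA was the highest group, at each replicate number by construction. Its fitted range did not overlap that of TTP, whereas its lowest value was below the highest of GFP.

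Irak3 rose by 0.75 ± 0.23 on the log2 scale for TTP-AA against GFP (adjusted p = 0.011, 95% interval 0.30 to 1.21), a fold of 1.69. For TTP-AA against TTP it rose by 1.00 ± 0.23 (adjusted p = 0.00018), a fold of 2.00 with an interval of 1.46 to 2.74. The change for TTP against GFP was -0.25 ± 0.23 (adjusted p = 0.60), with an interval from -0.70 to 0.21. Its standard error was the largest of the 10 genes. At 0.232 for TTP-AA against TTP it lay close to 0.235, which no listed gene exceeded. Its intervals may therefore be narrower than the spread between these libraries would give. The exons of Tmbim4 on the opposite strand cover 5.223% of the exon bases of Irak3.

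The calls of Ticam1 and Irak3 depended on the spread assumed for the test. The Wald scores of all listed genes had a central spread (the scaled median absolute deviation) of 1.505, 1.771 and 2.172 for TTP against GFP, TTP-AA against GFP and TTP-AA against TTP, where a spread of 1 is that of a standard normal score, and genes that differ between the groups are part of it. After division by it, 0 of the 10 genes were called in any comparison: the adjusted p (Wald test, Benjamini-Hochberg) of Ticam1 was 0.52 for TTP against GFP and 0.52 for TTP-AA against TTP, and that of Irak3 was 0.61 for TTP-AA against GFP and 0.54 for TTP-AA against TTP. At an unadjusted p under 0.05, 1, 0 and 2 of the 10 genes still passed, and the share of all genes at that threshold was not counted. With that division 2.079%, 1.492% and 1.999% of all listed genes were called.

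Several macrophage markers moved in the same comparisons. Their summed level was 567500 to 801600 in GFP, 474600 to 668100 in TTP and 649200 to 914400 in TTP-AA, and none was at 0. Most of that sum was Lyz2, at 406200 to 811000 over the 9 libraries, so that it follows this gene rather than the list. Of 8 markers 3 rose and 0 fell for TTP-AA against TTP, a share of 37.5% compared with 28.6% of all genes called. They were Adgre1 (F4/80, 1.43), Fcgr1 (0.82) and Lyz2 (0.46). Of 7 tested, Adgre1 and Fcgr1 fell for TTP against GFP (28.57%, compared with 9.16% of all genes), with log2 changes of -0.75 and -1.20. Only Adgre1 (0.68) was called for TTP-AA against GFP, 1 of 8 or 12.5%, compared with 17.9% of all genes. With lists this short the difference from these shares was not tested. The part of these marker changes in those of Ticam1 and Irak3 was not tested. S100a8, a gene of neutrophils and also of activated macrophages, rose by 0.76 for TTP-AA against GFP and by 0.74 for TTP-AA against TTP, whereas Zbtb46, a dendritic cell gene, fell by 1.10 and 1.06. Zbtb46 was low, at 13.8 to 45.9. Flt3 (-0.22 and -0.18) and Xcr1 (-0.13 and 0.05), of the same list, were not called. The summed neutrophil list was 111.3 to 183.1 in GFP, 113 to 185.9 in TTP and 188.4 to 310.4 in TTP-AA, and the summed dendritic cell list was 281.4 to 344.1, 271.6 to 332.1 and 223.9 to 278.9. The neutrophil sum was nearly all S100a8 (110.3 to 309.4) and the dendritic cell sum mostly Flt3 (188.8 to 283.1), so that each follows 1 gene rather than its list. The part of these genes in the results was not tested either.

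Irak2 (ENSMUSG00000060477, chr6:113638467-113695026, plus strand), a kinase that sustains signaling after Irak1, had fitted normalized counts of 1300, 1705 and 2605 in GFP, 1343, 1762 and 2691 in TTP and 1668, 2186 and 3340 in TTP-AA. TTP-AA was highest, at each replicate number by construction, but the groups overlapped widely, since the replicate numbers differed more than the groups did. The log2 change was 0.36 ± 0.16 for TTP-AA against GFP (adjusted p = 0.11, 95% interval 0.04 to 0.68) and 0.31 ± 0.16 for TTP-AA against TTP (adjusted p = 0.14, interval -0.01 to 0.63). For TTP against GFP it was 0.05 ± 0.16. The 2 TATTTAT sites printed above are in its 3′UTR, 626 and 660 bases after the stop codon.

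Irak4 (ENSMUSG00000059883, chr15:94543643-94581815, plus strand), the first kinase that Myd88 engages, had fitted normalized counts of 1661, 1597 and 1584 in GFP, 1530, 1470 and 1459 in TTP and 1737, 1670 and 1657 in TTP-AA. The fitted ranges of GFP and TTP did not overlap, nor did those of TTP and TTP-AA. Its replicate numbers were the closest of the 10 genes, so that small group terms suffice to separate fitted ranges. The log2 changes were nonetheless small against their errors, at -0.12 ± 0.10 for TTP against GFP (adjusted p = 0.55), 0.06 ± 0.10 for TTP-AA against GFP (adjusted p = 0.73) and 0.18 ± 0.10 for TTP-AA against TTP (adjusted p = 0.17). When changes were centred on the median of the listed genes of the same chromosome, the last became 0.29 with an adjusted p of 0.021 (Wald test, Benjamini-Hochberg). With that centring 25.88% of all listed genes were called for TTP-AA against TTP.

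Irak1 (ENSMUSG00000031392, chrX:74013914-74023918, minus strand), the kinase that Irak4 activates and that passes the signal to Traf6, ranged from 2779 to 3028 fitted normalized counts in GFP, from 2514 to 2739 in TTP and from 2594 to 2826 in TTP-AA. GFP was the highest group, at each replicate number by construction, and its fitted range did not overlap that of TTP. The changes were -0.14 ± 0.15, -0.10 ± 0.15 and 0.05 ± 0.15 for TTP against GFP, TTP-AA against GFP and TTP-AA against TTP, with adjusted p of 0.65, 0.73 and 0.87.

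Downstream of the IRAKs, Traf6 (ENSMUSG00000027164, chr2:101678429-101701669, plus strand), the ubiquitin ligase that activates the Map3k7 complex, had the smallest differences between groups. Its fitted normalized counts were 1479, 1107 and 1612 in GFP, 1463, 1095 and 1595 in TTP and 1492, 1117 and 1626 in TTP-AA. The 3 groups ran in parallel, and the changes were -0.02 ± 0.15, 0.01 ± 0.15 and 0.03 ± 0.15, with adjusted p of 0.97, 0.97 and 0.92. Its 95% intervals were -0.30 to 0.27 for TTP against GFP, -0.27 to 0.30 for TTP-AA against GFP and -0.26 to 0.31 for TTP-AA against TTP, which leaves room for changes of that size.

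Map3k7 (ENSMUSG00000028284, chr4:31964097-32023467, plus strand), which phosphorylates the IκB kinases and MAP kinase kinases, had fitted normalized counts of 6263, 5928 and 6528 in GFP, 6350, 6010 and 6618 in TTP and 5473, 5180 and 5704 in TTP-AA. The fitted range of TTP-AA lay below those of both other groups. The log2 change was -0.19 ± 0.10 for TTP-AA against GFP (adjusted p = 0.20) and -0.21 ± 0.10 for TTP-AA against TTP (adjusted p = 0.11, 95% interval -0.42 to -0.01), and neither was called. For TTP against GFP it was 0.02 ± 0.10.

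**Figure D3:**
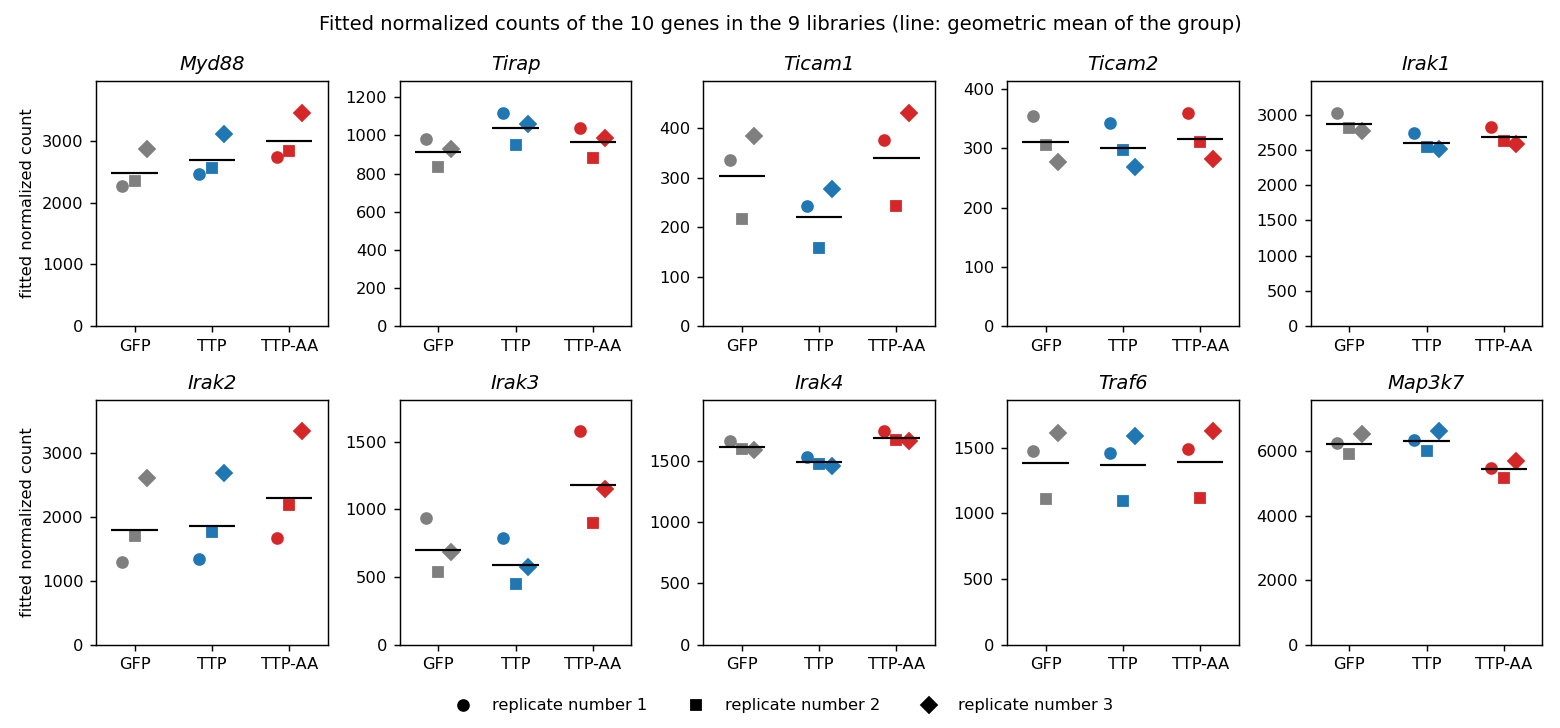
Fitted normalized counts of the 10 genes in the 9 libraries on linear axes that start at 0, with 1 panel per gene, the groups on the horizontal axis, marker shapes for the replicate numbers and a line for the geometric mean of the group. TTP-AA is highest for Irak3 (901.2 to 1574) and TTP lowest for Ticam1 (157.1 to 278.1), and Irak2 spreads more over the replicate numbers than over the groups.

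The 3 genes with TATTTAT in the 3′UTR, Irak2, Traf6 and Map3k7, were not among the called ones. Their log2 changes were from -0.02 to 0.05 for TTP against GFP, from -0.19 to 0.36 for TTP-AA against GFP and from -0.21 to 0.31 for TTP-AA against TTP. The 7 genes without the motif held every call, and neither Ticam1, which had no ATTTA, nor Irak3, which had 1, contained it. With 10 genes this is a description of where these letters occur.

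Levels were compared between genes per kilobase of transcript. Myd88 was the most abundant, at 1387 fitted normalized counts per kilobase over the 9 libraries, followed by Map3k7 (1037) and Irak1 (939.5). Irak2 (616.6) and Irak4 (562.9) came next. Irak3 (253.4), Traf6 (223.9) and Tirap (211.7) formed a lower tier, and the TRIF branch was the least abundant, with Ticam1 at 94.7 and Ticam2 at 73.6.

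The highest and the lowest level per kilobase differed 18.9-fold. Of the 9 pairs of neighbours in this order, 6 overlapped over the 9 fitted values. The pairs that did not were Myd88 and Map3k7, Irak4 and Irak3, and Tirap and Ticam1. In TTP-AA the level of Irak3 was 380.2 per kilobase, compared with 225.3 in GFP and 190.0 in TTP, and that of Ticam1 was 114.0, compared with 101.4 and 73.5.

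**Figure D4:**
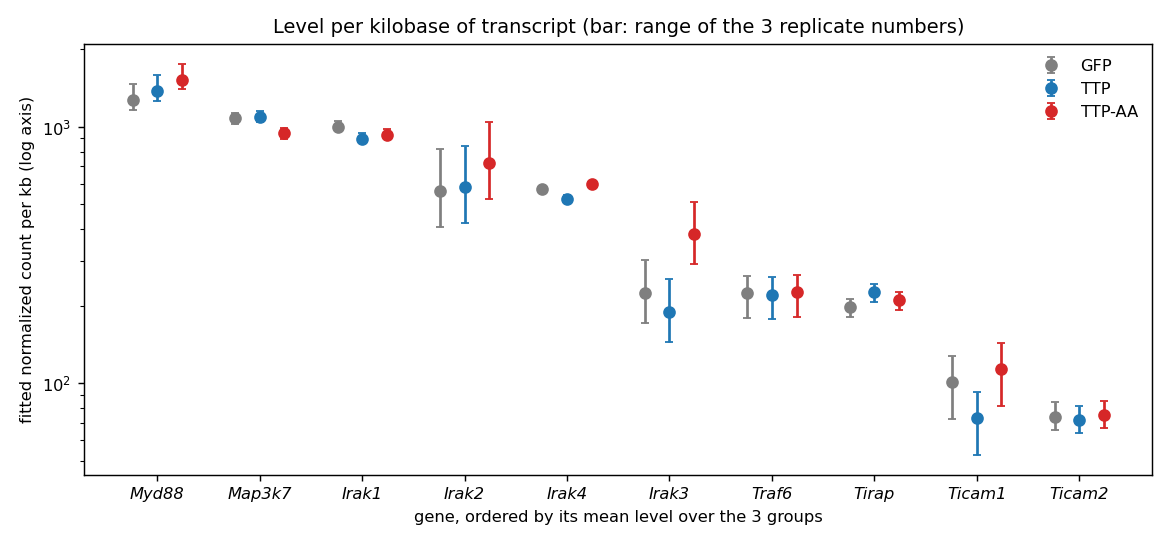
Fitted normalized counts per kilobase of transcript on a log axis for the 10 genes, ordered by their mean over the groups, with points for the geometric mean of each group and bars for the range of the 3 replicate numbers. Levels run from Myd88 (1387 over all libraries) to Ticam2 (73.6), and the TTP-AA point of Irak3 (380.2) lies above those of GFP (225.3) and TTP (190.0).

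The replicate number was a term of the model, and for several of the genes the level differed as much between replicate numbers as between groups. Irak2 differed 2.00-fold between the lowest and the highest replicate number and 1.28-fold between groups, Traf6 1.46-fold and 1.02-fold, and Ticam1 1.77-fold and 1.55-fold. For Irak3 the order was the opposite, with 1.75-fold between numbers and 2.00-fold between groups. Over the 10 genes, 6 differed more between replicate numbers than between groups, and over all 13205 listed genes 59.9% did. What the numbers stand for beyond the library date in the authors' model was not stated.

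The errors were larger than counting alone gives for each of the 10 genes. The standard error of a change was 1.82 to 1.99 times the error expected from counting alone for Ticam2, 1.90 to 2.33 times for Ticam1, 4.73 to 6.08 times for Irak3 and 6.67 to 7.14 times for Map3k7. Over all listed genes, 2.847%, 9.951% and 10.71% of the standard errors for TTP against GFP, TTP-AA against GFP and TTP-AA against TTP were below that counting limit, and none exceeded 0.235. Whether the deposited changes were shrunk toward 0 was not stated. Standard errors below the counting limit, with the same largest value (0.2346) in each comparison, are not those of unshrunk changes. The folds, intervals and fitted levels given here are therefore to be read as shrunk ones.

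The partners of these proteins were described from a list of 24 genes, which holds the Pellino ligases, the TAB and ubiquitin proteins, the IκB kinases and the interferon regulatory factors. For TTP against GFP, 2 of 23 tested partners were called, both lower, a share of 8.7% compared with the 9.16% of all genes. They were Irf7 and Tbk1. Irf7, which drives type I interferon genes, had a log2 change of -1.17 ± 0.23 (adjusted p = 1.5e-05, Wald test of the authors' model). Tbk1, the kinase of Irf3 and Irf7, had one of -0.29 ± 0.10 (adjusted p = 0.047, same test). Tbk1 was named after its values were seen. For TTP-AA against GFP, 7 of 24 rose and 0 fell, a share of 29.2% compared with the 17.9% of all genes. For TTP-AA against TTP, 8 of 24 rose and 0 fell, a share of 33.3% compared with 28.6%.

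The median change of the partners was -0.04, 0.12 and 0.19 in the 3 comparisons, compared with 0.01, 0.00 and -0.01 over all genes. Irf7 rose by 1.74 ± 0.23 for TTP-AA against TTP (log2, adjusted p = 1.0e-12), the largest change of the list. Its level was low, at 23.2 to 134.7 fitted normalized counts over the 9 libraries. For TTP-AA against GFP the change of Irf7 was 0.57 ± 0.22 and was not called (adjusted p = 0.056, Wald test). Peli3, a ligase that acts on the IRAKs, rose by 1.13 ± 0.21 for TTP-AA against GFP and by 0.92 ± 0.21 for TTP-AA against TTP, and Peli2, of the same family, rose by 0.61 ± 0.20 for TTP-AA against GFP. Irf5, which binds Myd88, rose by 0.41 ± 0.12 and 0.60 ± 0.12 for TTP-AA against GFP and against TTP, and Ikbke, a kinase related to Tbk1, by 0.55 ± 0.15 and 0.51 ± 0.15. Tnip1, which restrains NF-κB, rose by 0.56 ± 0.16 for TTP-AA against GFP.

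Of 23 receptors and co-receptors, 16 were tested for TTP-AA against TTP, and 4 rose and 0 fell, a share of 25% compared with the 28.6% of all genes. They were Tlr8 (0.72 ± 0.18), a sensor of RNA, Tlr6 (0.62 ± 0.18), the partner of Tlr2, Ly96 (0.54 ± 0.13), the MD-2 subunit that binds LPS with Tlr4, and Tlr13 (0.27 ± 0.11), which was named after its values were seen. For TTP-AA against GFP, 1 of 16 rose, which was Ly96 (0.36 ± 0.13), a share of 6.25% compared with the 17.9% of all genes. For TTP against GFP, 0 of 15 were called by the Wald test of the authors' model, compared with 9.16% of all genes. At an unadjusted p under 0.05, 3 of the 15 passed, and the share of all genes at that threshold was not counted. Tlr4, the receptor of LPS, changed by 0.01 ± 0.09, -0.16 ± 0.09 and -0.17 ± 0.09 in the 3 comparisons, and none of these was called.

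The list calls depended on the spread of the scores as well, a setting applied to the lists after seeing the data. After division of the scores by their central spread, Irf7 alone of both lists was called, for TTP against GFP and for TTP-AA against TTP, and 0 partners and 0 receptors were called for TTP-AA against GFP, where 3 and 0 had an unadjusted p under 0.05. The share of all genes at that unadjusted threshold was not counted.

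**Figure D5:**
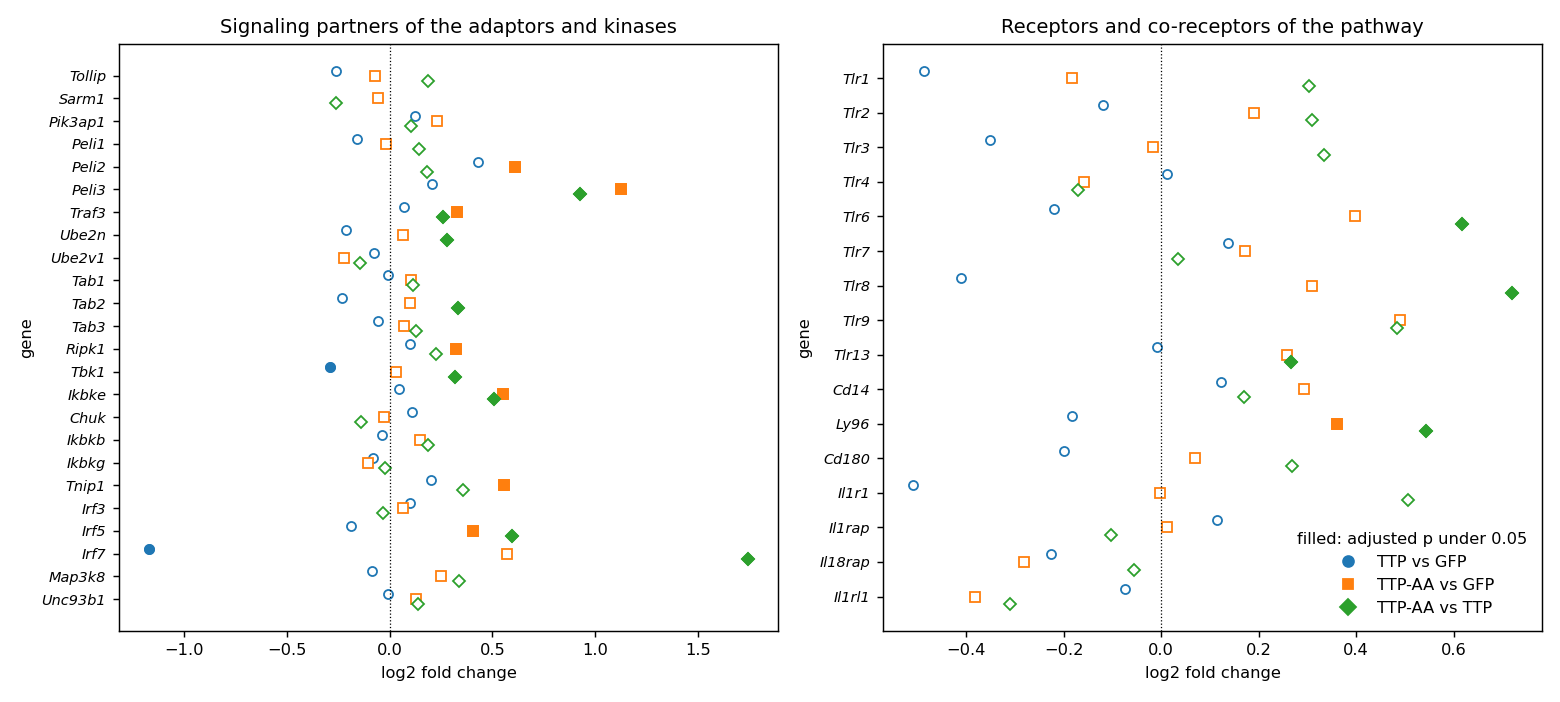
Log2 fold changes of the tested signaling partners (left) and receptors (right) in the 3 comparisons, with the change on the horizontal axis, 1 row per gene, marker shapes and colors for the comparisons and filled markers for called genes. Filled markers for TTP-AA against TTP all lie to the right of 0, for 8 partners and 4 receptors, with Irf7 (1.74) farthest out.

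The genes whose fitted profile over the 9 libraries lay nearest to those of Ticam1, Irak3 and Irak2 were found by Euclidean distance of centred log2 values among 11142 genes. For Irak3 they were Cd300e (distance 0.207), Phactr2 (0.295) and Tnfrsf23 (0.310), compared with a median distance of 1.739. For Ticam1 they were Gas7 (0.311), Tet2 (0.327) and Hipk1 (0.340), with a median distance of 1.482, and for Irak2 they were Nfkb2 (0.108), Clec4e (0.175) and Slfn2 (0.193), with a median of 1.505. The nearest of so many genes lie below the median distance by construction. All points also share the terms of 1 model, so that these distances are a description.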

How the data were processed

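RNA of 9 libraries was sequenced by the authors, trimmed, aligned with TopHat to GRCm38, counted per Ensembl gene with HTSeq and fitted with DESeq2 (version 1.6.3) with library date and condition as terms. The version of TopHat differs between the sources used here, and the submitters' processing notes name TopHat2 2.0.12. Up to a set number of placements per read was kept, so that reads of near-identical genes can be shared.

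The authors deposited a library table named as normalized counts, used here as a signal, and comparison tables with a mean signal, log2 fold changes with standard errors (log2 scale), Wald scores and p-values with adjusted p-values. The library table held fitted means: between libraries of 1 replicate number, log2 ratios departed from the deposited log2 changes, apart from a shift common to all genes, by at most 1.485e-14. A test per library was therefore not possible, and the planned tests used the deposited changes, standard errors and adjusted p-values of the authors' model, in which the replicate numbers pair the libraries as library date. They are the authors' own values, not an independent fit. Repeated gene identifiers (3 per comparison table, 10 in the library table) were counted once.

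Library factors were recovered from the fitted values, exactly within a replicate number and, between numbers, by regression of the deposited mean on fitted values on 11143 genes whose mean was 50 or more. Using all genes changed a factor by up to 5.621%. Fitted normalized counts are fitted values divided by these factors, and group levels are geometric means. 95% intervals are the change ± the normal quantile times its standard error. The counting error is that of a Poisson count.

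Genes were annotated with GENCODE mouse release 21, which is on the authors' assembly but newer than their Ensembl genes, and GC content and length were found for 99.45% of the genes in the table of TTP-AA against TTP. No protein sequence and no promoter was used here. The genes and lists were chosen with earlier results of these data known. Named genes were all 10 genes, Zfp36, genes of the 2 pathway lists that were called with an absolute log2 change of at least 0.5 (at most 6 per list, by size), and for the 3 genes with the largest Wald scores the 3 nearest profiles. Alternatives were another adjustment, t distribution, scaling by the central spread, both centrings, a filter on low means and a GC and length correction. The functions were tested on simulated data. Python 3.11.15, numpy 2.4.6, pandas 2.3.3, scipy 1.17.1 and matplotlib 3.10.9 were used.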

Additional observations from a re-analysis of the deposited data

Results flagged for a closer look

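For 2 of the 10 genes the change against GFP differed between the TTP and TTP-AA lines, by the test of TTP-AA against TTP, which is the difference between both changes. For Ticam1 the change in TTP-AA minus that in TTP was 0.63 ± 0.14 (log2, adjusted p = 0.00013, Wald test of the authors' DESeq2 model), with a negative change in TTP (-0.47) and a positive one in TTP-AA (0.17) that was not itself called. For Irak3 it was 1.00 ± 0.23 (adjusted p = 0.00018), with -0.25 in TTP, which was not called, and 0.75 in TTP-AA. Both differences lost their call once the Wald scores were scaled by the central spread. Groups of 3 libraries were not tested for outlying samples.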

How the results depend on the processing

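Of 210 values of the 10 genes in 3 comparisons under 7 alternatives, 200 kept their direction and their side of the threshold, 8 lost the call, 1 gained it and 1 changed sign. Dividing the Wald scores by their central spread left 0 genes called in each comparison, and so did a t distribution with 4 degrees of freedom, which called 0% of all listed genes as well and so says nothing of these genes. Adjusting over the listed genes again, centring on the median of all genes, requiring a mean of at least 50 and removing the GC and length trend left 1, 1 and 2 genes called. The share of all genes called in these settings was 8.934% to 9.279%, 17.45% to 19.69% and 28.5% to 31.24%. Centring on the chromosome median gave 1, 1 and 3, with Irak4 added for TTP-AA against TTP (0.29), compared with 6.212%, 16.06% and 25.88% of all listed genes. This centring turned Map3k7 for TTP against GFP from 0.02 to -0.0075 and moved Irak3 for TTP-AA against TTP to 0.85. The causes were not tested. In the order of levels 2 genes changed place with the union of exons, with GFP levels or with TTP levels, and 0 with TTP-AA levels. The 3 genes with TATTTAT were also 3 with the longest 3′UTR.

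No paired analysis was possible because the library values are fitted means without scatter. The model behind the deposited tests already holds the replicate number as library date, and a fit without it, other pseudocounts, all genes above 0 and leaving out each library, TTP-AA replicate 3 included, were not run. The errors of Ticam1 and Ticam2 were nearest to the counting limit, at 1.90 to 2.33 and 1.82 to 1.99 times it. The part of depth in these errors was not tested.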
